A study of Mus musculus with 3 samples.

Results

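The genes described here encode 10 subunits of the intraflagellar transport (IFT) particle other than *Ift20*, namely *Ift22*, *Ift27*, *Ift46*, *Ift52*, *Ift88*, *Ift57*, *Ift80*, *Ift172*, *Ift43* and *Ift122*. They are a fixed list of names looked up in a table of 31053 mouse genes, in which all 10 were found. The list, drawn up with earlier results of these data known, does not hold every IFT subunit. They were measured by single-cell RNA sequencing (scRNA-seq) in 3 libraries of C57BL/6 spleen CD4+ T cells, sorted as 7AAD-CD3+CD4+ cells after enrichment of naïve cells. The study asked how *Ift20* bears on T cell activation, and the question for its partners is whether their transcripts differ with stimulation or with the loss of *Ift20*.

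The unstimulated WT library (none_WT) came from Ift20 f/f cells labelled with DPBS as the treatment, and the stimulated WT library (CD3CD28_WT) from Ift20 f/f cells that were stimulated for 24 h with anti-CD3 and anti-CD28, each at 1 μg/mL. The stimulated IFT20-KO library (CD3CD28_KO) came from Ift20 f/f CD4 cre cells under the same stimulation. All 3 libraries therefore carry the floxed allele, and the KO library alone also carries Cre under the *Cd4* promoter, which is active from an early stage of thymic development. There was no unstimulated KO library. The methods give male mice 5 to 10 weeks old, and neither the number of mice behind a library nor any pooling is stated in the sources used here. Each group was 1 library, so differences have no replicate check and no test was made.

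IFT is the movement of protein trains along the axoneme of the cilium, in which kinesin-2 carries the IFT-B complex outward and dynein-2 with the IFT-A complex returns it. IFT-B has a core of subunits (IFT-B1) and a peripheral set (IFT-B2), which includes IFT20 and its partners. Lymphocytes form no primary cilium, but IFT proteins have been placed at the Golgi, at endosomes and at the immune synapse of T cells, where they take part in recycling of receptors.

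After the study's filter (more than 200 genes and under 15% mitochondrial unique molecular identifiers, UMIs), 8031, 9903 and 13920 cells were left in the unstimulated WT, stimulated WT and KO library. They held 37133949, 116979076 and 106435143 UMIs. Medians per cell were 4627, 12167 and 5014.5 UMIs, and cells with under 3000 UMIs made up 16.6%, 21.7% and 39.6% of the cells. The lowest kept cell had 510, 709 and 1493 UMIs. Levels are UMIs per 1000000 (CPM) summed over the kept cells of a library, and they were compared between libraries, not between genes. All 6 markers of CD4+ T cells were present, at a summed 3265 to 4275 CPM, whereas 5 markers of multiciliated cells together had 1, 1 and 2 UMIs. The CD8 marker *Cd8b1* was at 28.6, 9.04 and 11.2 CPM, and *Cd8a* had 6, 14 and 31 UMIs, and the part of such cells in the results was not tested. The pairs of libraries shared 114, 137 and 197 cell barcodes.

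*Ift20* itself was measured at 64.4 CPM (95% interval 61.8 to 67.0) in unstimulated WT cells, 76.0 CPM (74.4 to 77.5) in stimulated WT cells and 6.60 CPM (6.13 to 7.11) in KO cells. The KO level was 0.0870 of the stimulated WT level, in the direction of the label. A UMI of *Ift20* was seen in 4.78% of KO cells and in 51.5% of stimulated WT cells. These intervals, like all those given here, are exact and cover counting error only.

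**Figure D1:**
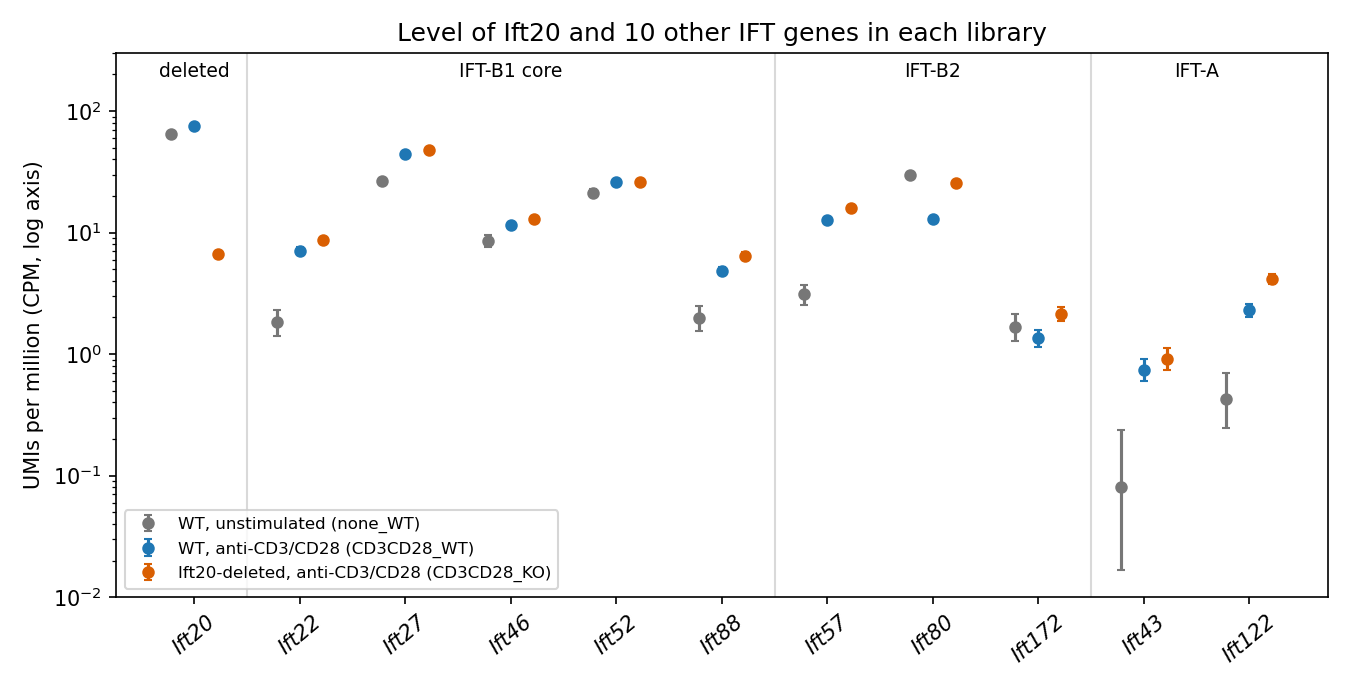
Level of *Ift20* and of 10 other IFT genes in the 3 libraries, in CPM on a log axis. Points are library totals and bars are exact 95% Poisson intervals, with genes grouped by complex. *Ift20* was at 6.60 CPM in the KO library against 76.0 CPM in stimulated WT cells. The other 10 genes had KO levels at or above stimulated WT on this scale. As UMIs per cell without scaling, 7 of these 10 were below it, where the median log2 ratio of all genes was -0.49.

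The 10 genes lay on 9 chromosomes of GRCm38, with *Ift22* and *Ift172* alone on a shared one (chromosome 5). RefSeq promoter sequences of GRCm38.p6, from 250 bases before to 50 after the start site, were at hand for 8 of the 10. They were searched on both strands for the X-box, the motif bound by RFX factors that marks many ciliary genes, in its usual form of an inverted repeat with a short spacer; a match found on both strands was counted once. Only the *Ift57* promoter held it, with 2 matches, against 1.53% of 32851 promoters in all. *Ift57* encodes the peripheral subunit that binds IFT20, and its promoter is shown because it was the only one of the 8 with a match. The stretch is on the forward strand at chr16:49699144-49699246 and runs from base -150 to base -48 before the RefSeq start site, with the 2 X-box matches in capitals.

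*Ift57* promoter: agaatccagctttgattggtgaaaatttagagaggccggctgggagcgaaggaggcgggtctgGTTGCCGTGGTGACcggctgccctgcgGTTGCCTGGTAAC

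The matches begin 87 and 60 bases before that start site. GENCODE places the start of *Ift57* further upstream, at base 49699233, so the match nearer to the gene lies within the gene as annotated there. A match describes letters in this window and was not measured as a binding site.

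In the IFT-B1 core, *Ift22*, a Rab-like GTPase (chromosome 5, 136908150 to 136915404), was at 1.83 CPM (1.42 to 2.32) in unstimulated WT, 7.07 CPM (6.60 to 7.57) in stimulated WT and 8.66 CPM (8.11 to 9.24) in KO cells. It was thus 3.86-fold higher in stimulated than in unstimulated WT cells (log2 1.95, 1.59 to 2.33), and less so in cells thinned to 1400 UMIs (log2 1.23). *Ift27*, the Rab-like GTPase that guides export of the BBSome from cilia (chromosome 15, 78159463 to 78174107), was at 26.4 CPM (24.8 to 28.1), 44.3 CPM (43.1 to 45.5) and 47.9 CPM (46.6 to 49.2) in the same order. Its level was 1.68-fold higher with stimulation (log2 0.75, 0.65 to 0.85).

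The structural core subunits were spread more widely. *Ift88*, whose mutation causes loss of cilia in mice (chromosome 14, 57424062 to 57517936), was at 1.97 CPM (1.54 to 2.47), 4.83 CPM (4.44 to 5.25) and 6.37 CPM (5.90 to 6.87). It was 2.46-fold higher with stimulation (log2 1.30, 0.94 to 1.67). *Ift46* (chromosome 9, 44767908 to 44793447) was at 8.56 CPM (7.65 to 9.56), 11.6 CPM (10.98 to 12.2) and 13.0 CPM (12.3 to 13.7). *Ift52*, a scaffold of the core (chromosome 2, 163017354 to 163046141), was at 21.3 CPM (19.9 to 22.9), 25.9 CPM (24.95 to 26.8) and 26.1 CPM (25.1 to 27.1). Both stayed within 1.5-fold, at 1.35-fold for *Ift46* and 1.21-fold for *Ift52*, although their counting intervals lay above no difference.

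The peripheral IFT-B2 subunits went in different directions. *Ift57* (chromosome 16, 49699233 to 49765126) was at 3.10 CPM (2.56 to 3.72) in unstimulated WT, 12.7 CPM (12.1 to 13.4) in stimulated WT and 16.0 CPM (15.2 to 16.8) in KO cells, so it was 4.10-fold higher with stimulation (log2 2.04, 1.76 to 2.32). *Ift80*, which also acts in Hedgehog signalling of bone (chromosome 3, 68892499 to 69004570), had the reverse pattern, at 29.7 CPM (28.0 to 31.5), 13.0 CPM (12.4 to 13.7) and 25.6 CPM (24.6 to 26.6). It was lower with stimulation (log2 -1.19, -1.30 to -1.08), though not as UMIs per cell, and was the only one of the 10 to be lower by 1.5-fold. *Ift172* (chromosome 5, 31253277 to 31291116) was at 1.67 CPM (1.28 to 2.14), 1.35 CPM (1.15 to 1.58) and 2.13 CPM (1.86 to 2.43), and the interval of its stimulation ratio spanned 0 (log2 -0.31, -0.74 to 0.14), with the sign turned in thinned cells (0.56) and as UMIs per cell (1.05).

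In IFT-A, *Ift122*, a core subunit (chromosome 6, 115853470 to 115926699), was at 0.431 CPM (0.246 to 0.700), 2.30 CPM (2.03 to 2.59) and 4.16 CPM (3.78 to 4.57), which is 5.34-fold higher with stimulation (log2 2.42, 1.69 to 3.24). *Ift43* (chromosome 12, 86082541 to 86162459) had the fewest UMIs, with 3 in the unstimulated WT library, 87 in stimulated WT and 97 in KO cells. Its log2 ratio with stimulation was 3.20, with a counting interval from 1.61 to 5.51 that its 3 UMIs left wide.

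Antisense genes overlap *Ift57* and *Ift88*, and use of strand in the counting is not given in the sources used here. *Gm15518*, antisense to *Ift57*, had 19, 51 and 40 UMIs, while *Ift88os*, antisense to *Ift88*, had none in any library. The annotated pseudogenes inside *Ift80* are not in the table of counted genes.

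Across the 10 genes, 6 were at least 1.5-fold higher in stimulated than in unstimulated WT cells (*Ift22*, *Ift27*, *Ift88*, *Ift57*, *Ift122* and *Ift43*), beside 28.6% of the 13297 genes tested, which had 10 or more UMIs in the pair of libraries. Only *Ift80* was lower by as much, beside 34.3% of all genes. The median log2 ratio of the 10 was 1.02, and that of all genes was -0.09. The *Ift20* log2 ratio itself was 0.24 (0.17 to 0.30), and 8 of the 10 had a larger one. Of these, *Ift52* had an interval (0.17 to 0.39) that covered the *Ift20* value. The share of all genes above that value was not computed, and their upper quartile was 0.74. Summed over the 10 genes, the level was 95.1 CPM in unstimulated WT and 124 CPM in stimulated WT cells. Of this, *Ift27* made up 26.4 and 44.3 CPM. The 13 listed IFT subunits outside the 10 summed to 72.9 and 69.8 CPM in the same order.

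**Figure D2:**
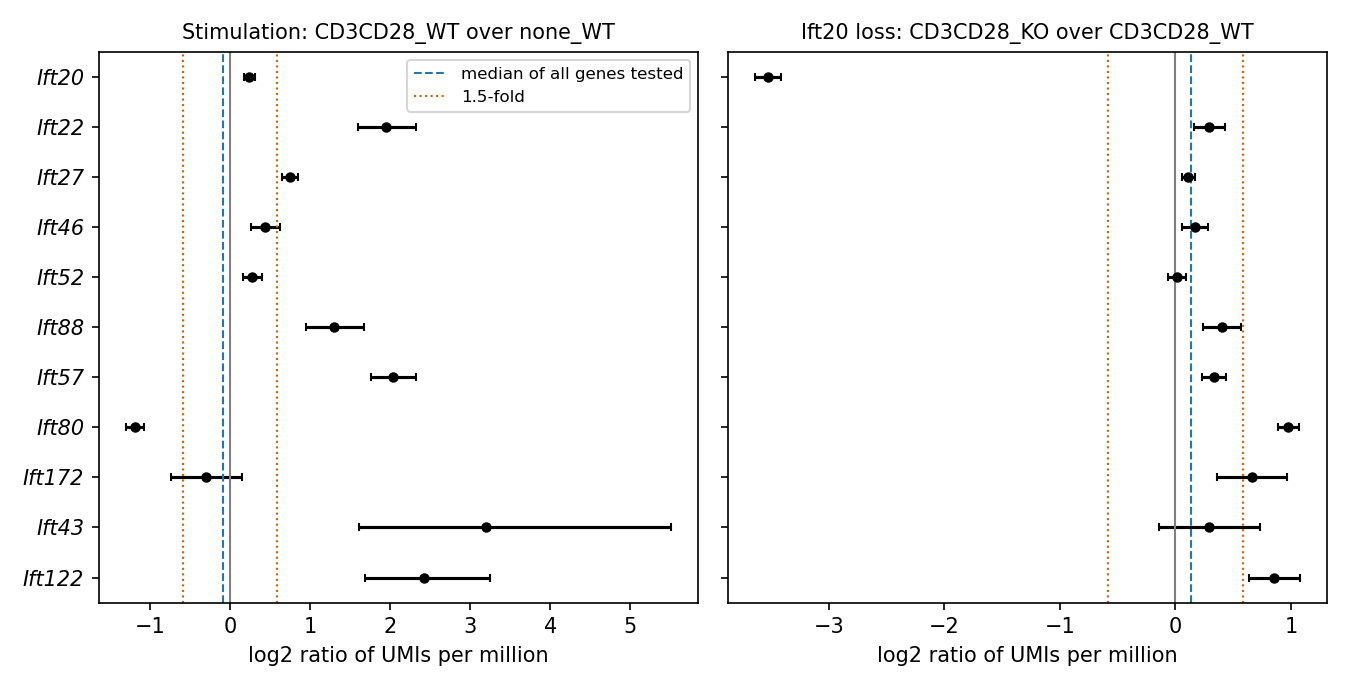
Log2 ratios of CPM for *Ift20* and the 10 other IFT genes, for stimulation (left) and for the loss of *Ift20* (right). Bars are exact 95% binomial intervals, dashed lines mark the median of all genes tested and dotted lines mark 1.5-fold. With stimulation 6 genes lie beyond 1.5-fold upward and *Ift80* lies beyond it downward (upward by 0.16 as UMIs per cell), whereas in the KO comparison *Ift80*, *Ift122* and *Ift172* lie beyond it and *Ift20* is at -3.52.

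In the stimulated KO library, *Ift80*, *Ift122* and *Ift172* were higher than in stimulated WT cells by 1.5-fold or more. *Ift80* was 1.97-fold higher (log2 0.97, 0.88 to 1.07), *Ift122* was 1.81-fold higher (log2 0.86, 0.63 to 1.08) and *Ift172* was 1.58-fold higher (log2 0.66, 0.36 to 0.96). These 3 of 10 stand beside 13.4% of the 13504 genes tested. None of the 10 was lower by 1.5-fold, beside 3.27% of all genes. The stimulated WT library enters both comparisons, so a high or low value there moves both ratios of a gene in opposite directions.

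The other 7 genes were within 1.5-fold of their WT level in the whole libraries. *Ift88* had a log2 ratio of 0.40 (0.24 to 0.56), *Ift57* of 0.33 (0.23 to 0.44) and *Ift22* of 0.29 (0.16 to 0.43). *Ift46* followed at 0.17 (0.06 to 0.28) and *Ift27* at 0.11 (0.06 to 0.17). The intervals of *Ift43* (0.29, -0.14 to 0.73) and *Ift52* (0.01, -0.06 to 0.09) spanned 0. *Ift57*, the direct partner of IFT20, was therefore 1.26-fold of its WT level where *Ift20* was at 0.0870 of it. The median log2 ratio of the 10 was 0.31 beside 0.14 for all genes, and 8 of the 10 lay above that all-gene median. The sum of the 10 genes was 151 CPM in KO cells.

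These ratios are relative to the total of each library, and KO cells held fewer UMIs. Counted as UMIs per cell without scaling, *Ift80*, *Ift122* and *Ift172* were higher in KO than in stimulated WT cells, and the other 7 genes were lower. The log2 ratios of *Ift80*, *Ift122* and *Ift172* were then 0.35, 0.23 and 0.03. Each of them was within 1.5-fold, and *Ift172* was near its WT level. *Ift80* had 0.137, 0.154 and 0.196 UMIs per cell in unstimulated WT, stimulated WT and KO cells, so its lower level with stimulation was not present on this scale. *Ift27* had 0.122, 0.524 and 0.366 UMIs per cell, and *Ift57* had 0.0143, 0.150 and 0.122.

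Cells of low UMI count were unequally common in the libraries, and several of the 10 genes differed with the UMI count of the cell inside both stimulated libraries. In the unstimulated WT library only the ratio of *Ift80*, cells under 3000 over cells with at least 8000 UMIs, had an interval without 0. In unstimulated WT cells *Ift80* was at 95.3 CPM in cells with under 3000 UMIs, 25.6 CPM in cells with 3000 to under 8000 and 27.6 CPM in cells with at least 8000. In stimulated WT cells it was at 85.9, 25.3 and 9.99 CPM over the same ranges, and in KO cells at 78.8, 44.9 and 15.02 CPM. *Ift80* was thus highest in the cells of lowest UMI count in all 3 libraries, and by 8.59-fold over those with at least 8000 UMIs in stimulated WT cells (log2 3.10, 2.92 to 3.28).

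*Ift122*, *Ift172*, *Ift88* and *Ift57* also had higher levels in the cells with under 3000 UMIs of both stimulated libraries. In stimulated WT cells *Ift122* was at 8.02 CPM under 3000 UMIs and 2.10 CPM from 8000 UMIs, and *Ift172* at 4.91 and 1.23 CPM. *Ift88* was at 13.5 and 4.57 CPM, and *Ift57* at 22.8 and 12.5 CPM. *Ift27* had the opposite order, at 23.3 and 45.2 CPM, as did *Ift22* at 2.85 and 7.26 CPM. The 5 of 10 that were at least 1.5-fold higher in such cells are close to the background, which was 58.4% of all genes in stimulated WT and 52.5% in KO cells. In unstimulated WT cells, where the background was 45.0%, 2 of the 10 were so, *Ift80* and *Ift122*. The 7 UMIs of *Ift122* are below the 10 required of the background genes, as are those of *Ift43*, which had none under 3000. A background gene with no UMI under 3000 was set to 3 counts there, which can raise the background shares. *Ift43* was left out of the count instead, so the comparison with the background is rough.

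**Figure D3:**
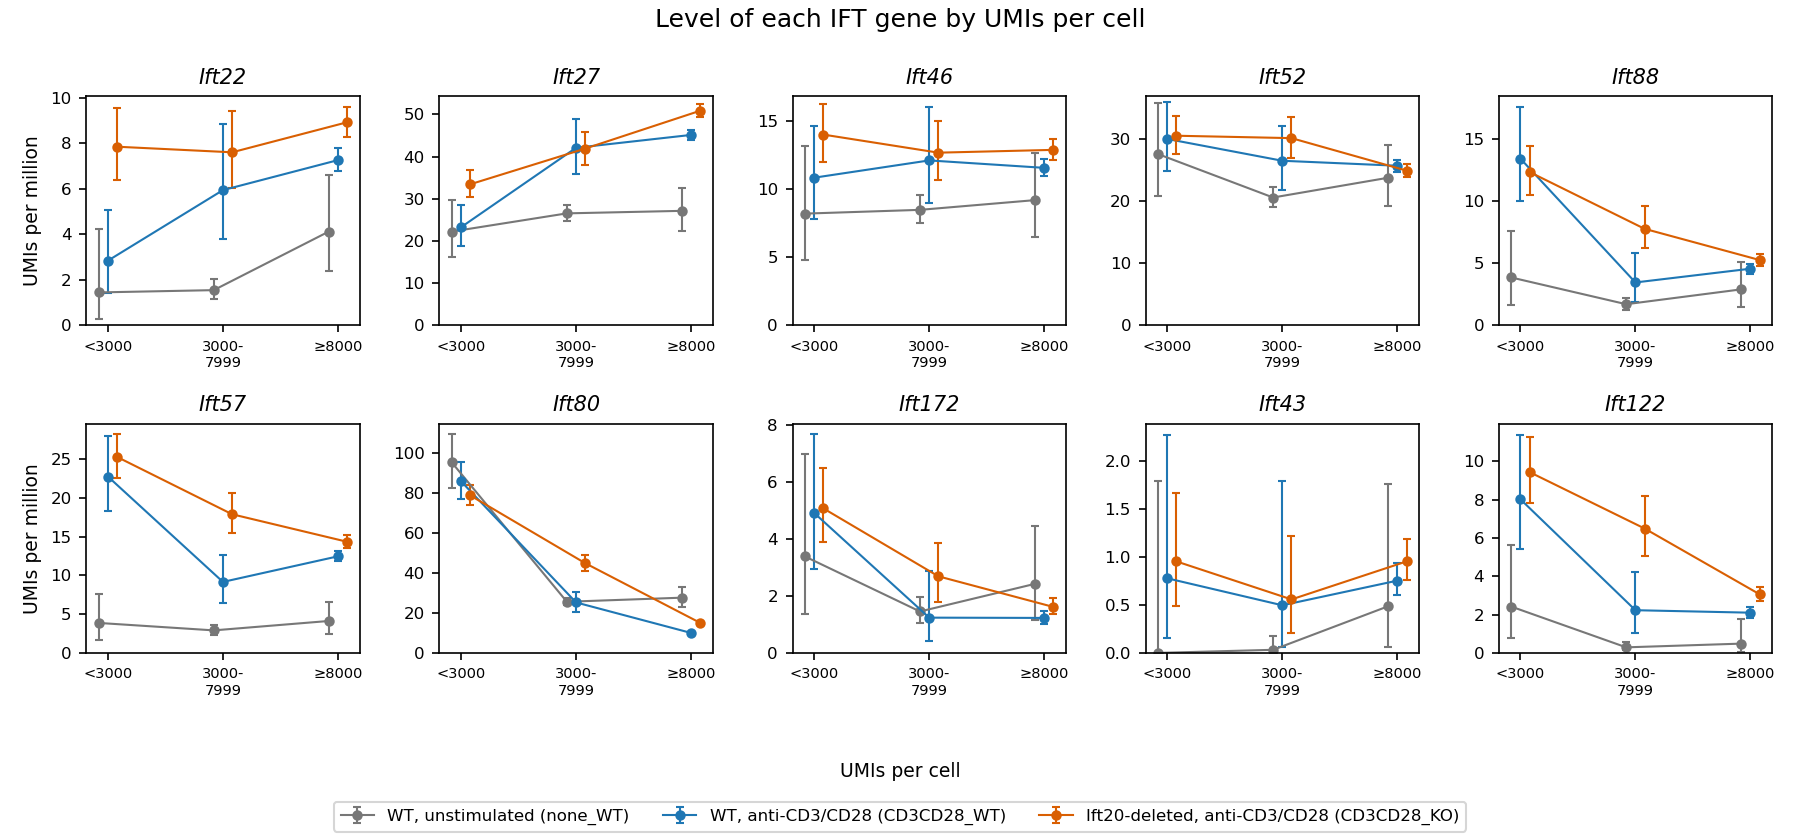
Level of each of the 10 IFT genes (CPM) in cells grouped by UMIs per cell, for the 3 libraries. Points are sums over the cells of a range, bars are exact 95% Poisson intervals and each panel has its own axis from 0. *Ift80* was at 78.8 to 95.3 CPM in cells under 3000 UMIs of all 3 libraries and at 9.99 to 27.6 CPM from 8000 UMIs, while *Ift27* was lowest in cells under 3000 UMIs.

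Within these ranges the KO differences were not the same size. The log2 ratio of *Ift80*, KO over stimulated WT, was -0.12 (-0.30 to 0.06) in cells under 3000 UMIs, 0.83 (0.52 to 1.15) in the middle range and 0.59 (0.47 to 0.71) from 8000 UMIs. For *Ift122* it was 0.23 (-0.35 to 0.85), 1.54 (0.54 to 2.73) and 0.54 (0.28 to 0.81), and for *Ift172* 0.05 (-0.71 to 0.87), 1.12 (-0.27 to 2.85) and 0.39 (0.04 to 0.75). In the cells with at least 8000 UMIs, 71.3% of stimulated WT and 44.2% of KO cells, all 3 genes stayed higher in KO cells, by less than in the whole libraries. Among the other genes, *Ift22* was at 1.46 (0.56 to 2.51) under 3000 UMIs. In the middle range *Ift57* was at 0.97 (0.45 to 1.51) and *Ift88* at 1.17 (0.34 to 2.10). The remaining KO ratios of these other genes were within 1.5-fold in every range. The part of the low-UMI cells in the KO differences was not tested.

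The lower *Ift80* level with stimulation lay in the cells with at least 8000 UMIs, where the log2 ratio was -1.47 (-1.75 to -1.18), and not in the other ranges, at -0.15 (-0.41 to 0.11) and -0.02 (-0.33 to 0.28). Only 4.93% of unstimulated WT cells had at least 8000 UMIs. *Ift57* was higher with stimulation in each range, at a log2 ratio of 2.56 (1.52 to 3.81), 1.66 (1.06 to 2.22) and 1.60 (0.91 to 2.38). *Ift122* was so too, at 1.73 (0.35 to 3.45), 2.94 (1.43 to 4.45) and 2.11 (0.24 to 5.17). *Ift27* was at 0.07 (-0.46 to 0.61) under 3000 UMIs, beside 0.66 (0.42 to 0.90) and 0.73 (0.46 to 1.02) above.

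The stimulation ratios of the other scarce genes were smaller in part of the ranges than in the whole libraries. *Ift22*, at 1.95 in the whole libraries, was at 0.97 (-0.95 to 3.45), 1.94 (1.17 to 2.67) and 0.82 (0.13 to 1.60). *Ift88*, at 1.30 in all cells, was at 1.80 (0.71 to 3.08), 1.02 (0.05 to 1.89) and 0.65 (-0.16 to 1.62). *Ift43*, at 3.20 in all cells, was at 0.63 (-1.27 to 3.70) from 8000 UMIs and had 3 UMIs over both libraries in each of the other ranges. The interval from 8000 UMIs thus spanned 0 for *Ift88* and *Ift43*. *Ift172* was at 0.54 (-0.78 to 2.03), -0.23 (-1.92 to 1.10) and -0.98 (-1.90 to 0.11), with 0 inside every interval. The summed level of the cycling markers *Mki67* and *Top2a*, which also differed between the libraries, was 8.81, 48.2 and 79.1 CPM, and its part in these results was not tested.

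Any of the 10 genes was seen in 33.8%, 66.7% and 59.3% of the unstimulated WT, stimulated WT and KO cells. These shares depend on the depth per cell, so each cell was also thinned to 1400 UMIs, which left out 801, 421 and 0 shallower cells. The thinned shares were 12.5% (11.7% to 13.2%), 17.0% (16.3% to 17.8%) and 22.3% (21.6% to 23.0%). Thinning makes depth equal but not the mix of cells, as 16.6%, 21.7% and 39.6% of the kept cells had under 3000 UMIs. The part of this mix in the thinned shares was not tested. Single genes were seen in few cells at that depth. *Ift27* was found in 3.61%, 5.79% and 5.91% of thinned cells against 11.3%, 35.4% and 26.4% before thinning. *Ift80* was found in 4.04%, 3.17% and 6.03%, against 11.6%, 13.2% and 16.4%. At the other end, *Ift43* had no UMI in 7230 thinned unstimulated WT cells, and was in 0.09% and 0.14% of the other libraries' thinned cells. Sorted T cells offer no cell type that should lack these genes, so a background share from free RNA was not measured.

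**Figure D4:**
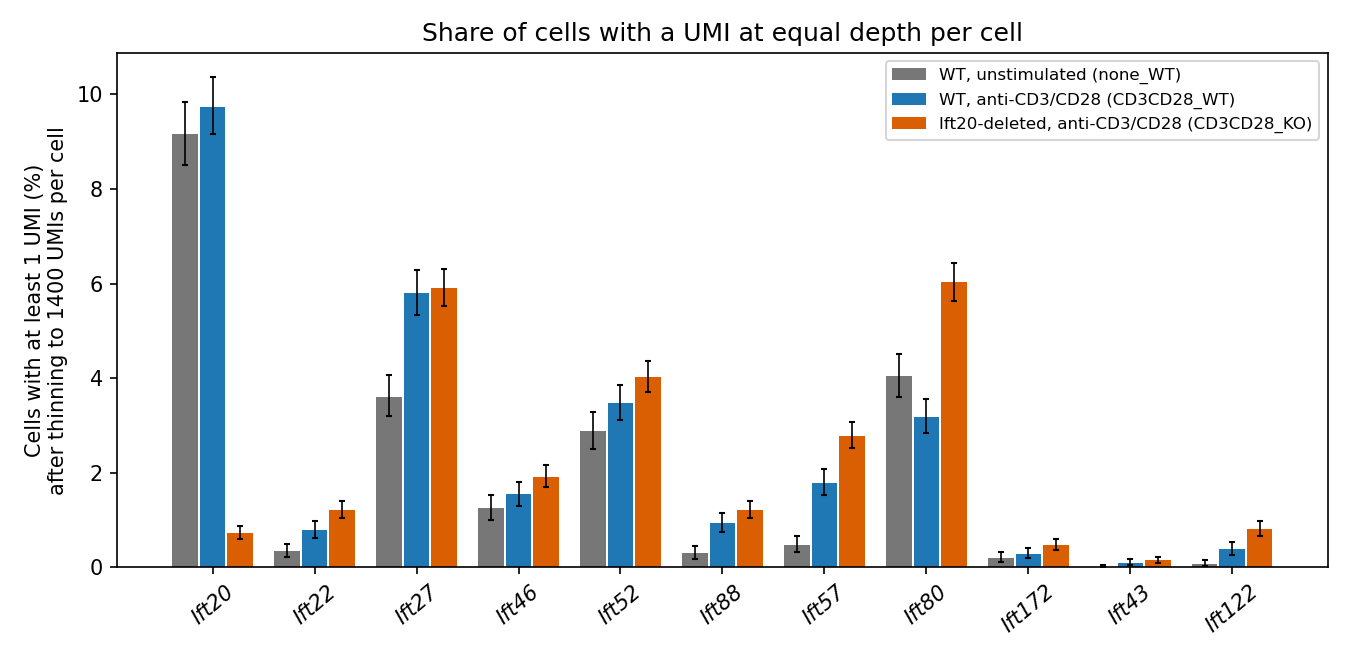
Share of cells (%) with at least 1 UMI of each gene after every cell was thinned to 1400 UMIs, for 7230, 9482 and 13920 cells. Bars start at 0 and error bars are exact 95% Clopper-Pearson intervals. *Ift80* was found in 3.17% of stimulated WT and 6.03% of KO cells, and *Ift27* in 5.79% and 5.91%. The libraries still differ in their share of cells that had under 3000 UMIs before thinning.

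A further 13 subunits complete the listed IFT particle, and 12 of them had at least 10 UMIs. With stimulation, 4 of the 12 were higher by 1.5-fold and 1 was lower, near or below the 28.6% and 34.3% of all genes. Their median log2 ratio was 0.31, or -0.014 in cells with at least 4000 UMIs. *Ift74*, which binds tubulin together with IFT81, was at 1.56, 5.27 and 8.88 CPM, with log2 ratios of 1.76 with stimulation and 0.75 in KO cells. *Wdr35*, an IFT-A subunit, had 2.57 with stimulation, and *Ttc30a1*, an IFT70 gene with close paralogs that can make its reads ambiguous, had 2.05. *Traf3ip1*, which encodes the IFT54 partner of IFT20, had 0.80 with stimulation and 0.11 (-0.02 to 0.25) in KO cells.

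In the KO comparison 4 of the 12 were higher by 1.5-fold and none was lower, beside 13.4% and 3.27% of all genes. Their median log2 ratio was 0.44, beside 0.14 for all genes, or -0.18 as UMIs per cell without scaling. The 4 were *Ift74*, *Ttc26* and the IFT-A subunits *Wdr19* (1.19, 0.64 to 1.75) and *Ttc21b* (0.67, 0.49 to 0.85). *Ttc26*, named here after its values were seen, had 35 UMIs over both libraries and an interval across 0. *Wdr19*, like *Ift80*, *Ift172* and *Ttc21b* among others, was lowest in stimulated WT cells, at 0.781, 0.359 and 0.817 CPM. It was the 1 subunit of the 12 that was lower by 1.5-fold with stimulation (log2 -1.12, -1.84 to -0.39). On the CPM scale all 12 had log2 ratios above 0 in the KO comparison, and 9 were above the all-gene median. The share of all genes above 0 was not computed, and their lower quartile was -0.046.

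**Figure D5:**
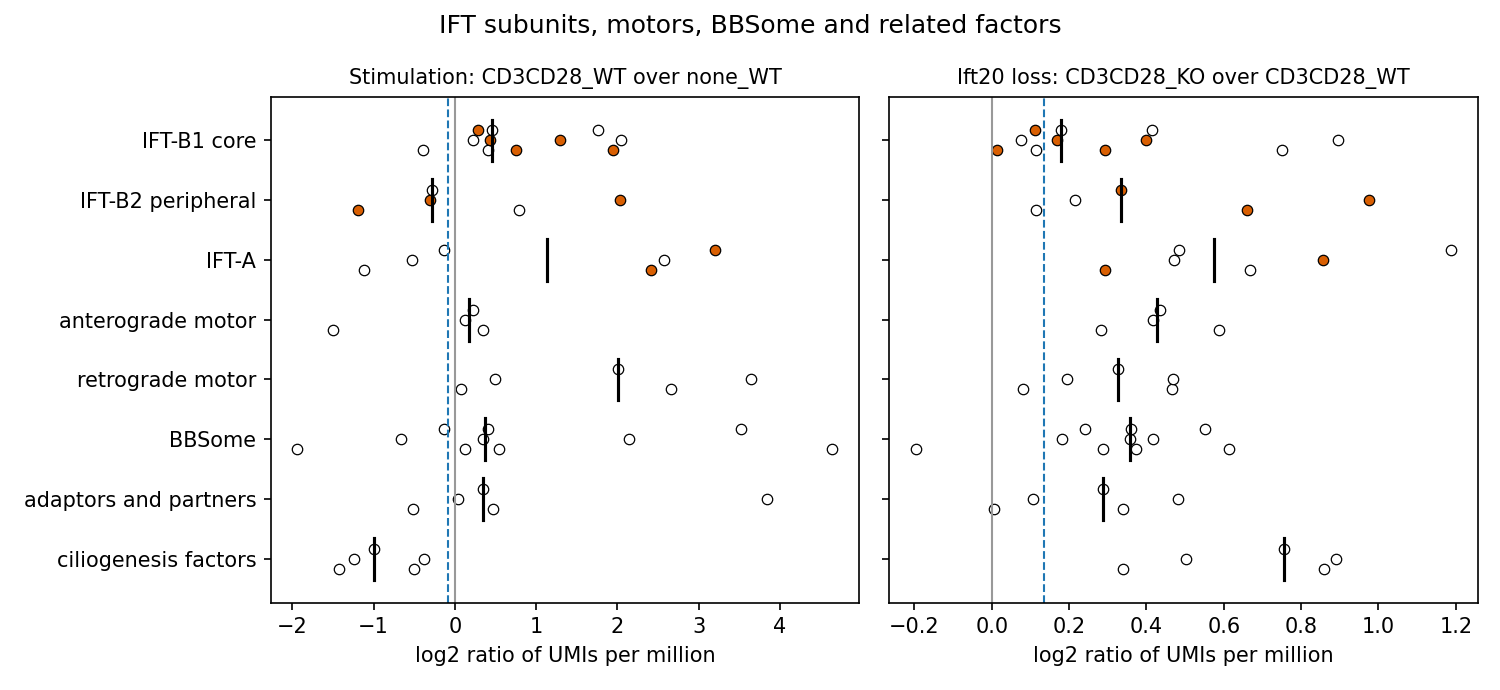
Log2 ratios of CPM for the listed IFT subunits, motors, BBSome genes, adaptors and transcription factors with at least 10 UMIs, without *Ift20*. Filled points are the 10 genes described here, open points the other listed genes, black bars list medians and the dashed line the median of all genes tested, and the panels have different horizontal scales. The retrograde motor has a median of 2.01 with stimulation and the transcription factors one of -0.999, or 0.35 as UMIs per cell.

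The motors that carry the particle differed from each other. Of the 5 genes of dynein-2, the retrograde motor, 3 were higher by 1.5-fold with stimulation and none was lower. The shares of all genes were 28.6% and 34.3%, and the median log2 ratio of the 5 was 2.01. *Wdr34*, an intermediate chain, was at 0.539, 6.73 and 7.70 CPM (log2 3.64, 3.01 to 4.36), *Wdr60*, the other intermediate chain, had 2.66 and the light chain gene *Tctex1d2* had 2.01. Of the 4 kinesin-2 genes with at least 10 UMIs, only *Kif3c* was beyond 1.5-fold. It was lower (log2 -1.51, -1.85 to -1.16), beside 34.3% of all genes. In the KO comparison *Kif3b* alone of the motor genes was beyond 1.5-fold, beside 13.4% of all genes higher by as much. Its log2 ratio was 0.59 (0.50 to 0.67). The medians were 0.33 for dynein-2 and 0.43 for kinesin-2, or -0.30 and -0.20 as UMIs per cell.

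For *Trip11* and *Tsg101*, which encode partners of IFT20, both ratios stayed within 1.5-fold. *Trip11*, whose product GMAP210 anchors IFT20 at the Golgi, was at 51.8, 36.3 and 44.3 CPM, with log2 ratios of -0.51 (-0.59 to -0.44) and 0.29 (0.23 to 0.35). *Tsg101*, a subunit of ESCRT-I, was at 39.9, 50.5 and 50.7 CPM, with log2 ratios of 0.34 (0.26 to 0.42) and 0.01 (-0.05 to 0.06). Of the 5 adaptors and partners listed, only *Rabl2* was beyond 1.5-fold with stimulation, and it was higher, beside 28.6% of all genes. *Rabl2*, a GTPase that binds IFT-B, had a log2 ratio of 3.84 (2.70 to 5.30, from 6 UMIs in unstimulated WT cells). None of the 5 was beyond 1.5-fold in the KO comparison, beside 13.4% of all genes higher and 3.27% lower.

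*Ift43* had the largest stimulation ratio of the 10 by size, and the genes nearest to it over the 2 log2 ratios were sought among the 11298 genes with at least 100 UMIs over the 3 libraries. They were *Tyms* (3.18 and 0.30), which makes thymidylate, *Cst7* (3.16 and 0.29), a cystatin, and *Gm5160* (3.22 and 0.34). The likeness is a distance over 2 ratios that share a library, and the 3 UMIs of *Ift43* in unstimulated WT cells set its own position only loosely.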

How the data were processed

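The authors aligned reads and counted UMIs with Cell Ranger (version 3.1.0 in the matrix headers), against mm10 per the labels. They deposited raw UMI counts per gene and called barcode, without normalization. The labels name a 5′ kit and the methods a 3′ kit. No group had more than 1 library.

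The kept cells had over 200 genes and less than 15% mitochondrial UMIs, and no doublet caller was run. Counts were summed per library and divided by its total (CPM). Intervals are exact at 95% (Poisson, binomial for ratios, Clopper-Pearson for shares), and a gene at 0 was set to 3 counts for a ratio. A call is a 1.5-fold difference in a gene with at least 10 UMIs over both libraries. All 10 genes passed in both comparisons. Other listed genes are named at 100 UMIs and 1.5-fold, and *Trip11*, *Tsg101* and *Traf3ip1* always. *Ttc26*, *Bbs5*, *Bbs1* and *Foxj1* fall outside this rule. The genes and lists were chosen with earlier results of these data known. Interval coverage was checked on simulated Poisson counts without spread between cells or libraries, so the check covers counting error only. Python 3.11.15, numpy 2.4.6, scipy 1.17.1 and pandas 2.3.3 were used.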

Additional observations from a re-analysis of the deposited data

How the results depend on the processing

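The 6 genes higher by 1.5-fold with stimulation numbered 4 to 9 under every alternative. The 1 lower gene (*Ift80*) became 0 with the mean of per-cell fractions, with UMIs per cell without scaling and with thinned cells. A split by UMIs per cell was added after the data had been seen. The lower count was 2 from 8000 UMIs and 0 under 3000. The median log2 ratio of the 10 genes was 0.64 and 0.54 there and 2.38 without scaling. The 0.54 leaves out *Ift43*, which had under 10 UMIs in that range. For KO cells the count of 3 higher genes became 0 without scaling, 6 with thinned cells and 1 in either UMI range. That 1 gene was *Ift80* from 8000 UMIs and *Ift22* under 3000. The higher count was 0 at 2-fold and 5 at the looser fold tried, and the count of 0 lower genes became 1 without scaling. The median was 0.19 with median-ratio scaling, 0.62 with thinned cells and -0.31 without scaling. No other alternative moved a count by over 1.5 times. Shares of all genes past the fold were not computed under these alternatives, so the counts have no background beside them.

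Without scaling, the median of all genes was 1.27 with stimulation (-0.09 in CPM) and -0.49 in KO cells (0.14 in CPM). The stimulation ratio of *Ift80* was then 0.16 and the median of the ciliogenesis factors 0.35. The KO ratios of *Ift27*, *Ift46*, *Ift57*, *Ift88* and *Ift22* were -0.52, -0.46, -0.29, -0.23 and -0.33. The KO medians were -0.45 for IFT-B1, -0.052 for IFT-A, and -0.20 and -0.30 for the anterograde and retrograde motor. For IFT-B2 the median was -0.35, with the deleted *Ift20* counted in that list. They were -0.27 for the BBSome list, -0.34 for the adaptors and -0.18 for the other 13 IFT subunits. The KO ratio of *Ift27* was -0.012 with median-ratio scaling. Under 3000 UMIs the KO ratios of *Ift80* and *Ift88* were -0.12 and -0.12, and the stimulation ratio of *Ift20* was -0.35. The causes were not tested. *Ift43* had too few UMIs for a stimulation ratio in that range. No paired analysis was possible because each group has 1 library, and none could be left out. Depth limits *Ift43* and *Ift122* in unstimulated WT cells, with 3 and 16 UMIs, where a count of 0 would allow up to 0.0808 CPM.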

Other observations

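The list for the BBSome, the coat complex that rides on IFT trains, had 10 genes, with its GTPase and a regulator besides the subunits. Of these 10 genes, 3 were higher by 1.5-fold with stimulation and 2 lower, beside 28.6% and 34.3% of all genes. Their median log2 ratio was 0.37, or 0.095 in thinned cells. *Arl6*, the GTPase that recruits the BBSome, was at 0.539, 6.21 and 7.34 CPM in unstimulated WT, stimulated WT and KO cells (log2 3.53, 2.89 to 4.25, with stimulation). *Ttc8*, a subunit, was at 0.592, 2.62 and 3.20 CPM (log2 2.15). *Bbs9* went the other way, at 14.7, 3.83 and 4.91 CPM (log2 -1.94, -2.12 to -1.76), as did *Bbs4* at 5.41, 3.41 and 3.87 CPM (log2 -0.67). *Bbs5*, named after its values were seen, had 80 UMIs over both WT libraries and a log2 ratio of 4.65 (2.13 to 9.97). In the KO comparison 1 of the 10 was beyond 1.5-fold, beside 13.4% of all genes. It was *Bbs1*, also named after its values were seen, with 55 UMIs and a log2 ratio of 0.61 (-0.21 to 1.45).

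The listed RFX factors, which bind the X-box, were lower with stimulation in all 5 that had at least 10 UMIs, 3 of them by 1.5-fold, beside 34.3% of all genes. Their median log2 ratio was -0.999, or -0.29 in thinned cells and 0.35 as UMIs per cell without scaling. *Rfx1* was at 21.4, 7.97 and 10.1 CPM (log2 -1.42) and *Rfx3* at 8.64, 4.33 and 8.02 CPM (log2 -0.999). In the KO comparison all 5 were above 0, with a median of 0.75 beside 0.14 for all genes, or 0.24 in cells with at least 4000 UMIs and 0.13 as UMIs per cell. *Rfx3* had 0.89 (0.73 to 1.05) and *Rfx5*, which acts on MHC class II genes, 0.75 (0.58 to 0.93). *Foxj1*, the factor of motile cilia, is given for its absence and had no UMI in either WT library.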
